A study of Homo sapiens with 51 samples.

Results

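The genes described here are EPCAM and the matriptase network of the epithelial surface, 5 genes of the 24033 in the deposited expression table. They were chosen by name, as EPCAM together with the matriptase gene ST14, the prostasin gene PRSS8 and the inhibitor genes SPINT1 and SPINT2, and all 5 have a value in every library. They were followed through 51 libraries in 17 groups of 3. HMLE-TWIST1 cells are human mammary epithelial cells of the HMLE line that carry TWIST1, a transcription factor of the epithelial to mesenchymal transition, and HMLE cells, labelled wild type, are the line they are set against. HMLE-TWIST1 cells were exposed to chaetocin, a fungal inhibitor of SUV39H1 and related histone H3 lysine 9 methyltransferases, at 100, 150, 200 or 500 nM for 48 h, or to 80 nM for 15 h with 48 h of recovery (the washout, day 4). Their controls received DMSO for 2 days, or for 15 h with the same recovery. Both lines were transfected with RNA duplexes directed at SUV39H1 and SUV39H2 (the knockdown) or a scrambled duplex, and were collected after 48 h (day 2) or after a further 48 h in fresh medium (day 4). No HMLE group received chaetocin. The labels do not say whether HMLE-TWIST1 is 1 clone or a pool, nor that the 3 libraries of a group came from separate cultures, so every p-value measures only the spread between these libraries.

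EPCAM is an adhesion glycoprotein of epithelial cells that binds claudins and is released in pieces by proteases. Matriptase, from ST14, is a serine protease anchored in the membrane, and prostasin, from PRSS8, is a serine protease held by a lipid anchor; each can activate the other's precursor on epithelial cells. The Kunitz-type inhibitors from SPINT1 and SPINT2 bind matriptase and keep it in check, and inherited loss of SPINT2 or of EPCAM each causes an intestinal epithelial disease. Matriptase is known to cut EPCAM in intestinal cells that lack the SPINT2 product.

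Of the 5 members, 1 matched the RefSeq promoter table (GRCh38.p14), SPINT1, which is also the member that passed the test most often between duplex groups. Both of its listed starts are shown, from 250 bases before to 50 bases after the start, 5′ to 3′ on the plus strand. Capitals mark the E-box CANNTG, the class of sequence that TWIST1 and the ZEB and SNAIL repressors bind.
SPINT1 start 1, chr15:40843798-40844097: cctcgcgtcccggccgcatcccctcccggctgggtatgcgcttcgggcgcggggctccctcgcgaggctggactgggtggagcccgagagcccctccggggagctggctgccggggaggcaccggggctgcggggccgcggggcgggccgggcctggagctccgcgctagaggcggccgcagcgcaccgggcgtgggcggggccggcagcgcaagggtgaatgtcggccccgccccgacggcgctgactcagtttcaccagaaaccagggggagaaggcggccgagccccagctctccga
SPINT1 start 2, chr15:40844227-40844526: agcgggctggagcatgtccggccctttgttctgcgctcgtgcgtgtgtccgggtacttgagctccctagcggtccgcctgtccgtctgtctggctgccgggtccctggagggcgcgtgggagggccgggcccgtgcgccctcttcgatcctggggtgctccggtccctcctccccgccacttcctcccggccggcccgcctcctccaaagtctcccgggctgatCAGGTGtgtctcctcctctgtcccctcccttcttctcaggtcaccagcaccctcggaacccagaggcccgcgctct
The first stretch holds 0 E-boxes and the second 1, whose letters are those of CACCTG on the other strand, the form that ZEB and SNAIL factors bind. Over all 35116 listed promoters of this length, searched on both strands, 68.7% hold CANNTG and 20.6% hold CACCTG, which is one of the forms of CANNTG. The first stretch also holds 1 match to the AP-1 sequence TGANTCA, which 7.71% of promoters hold. Neither stretch holds the grainyhead sequence AACCNGGTT, found in 0.239% of promoters. Their GC content was 77.7% and 69.7%, with 38 and 25 CpG, against medians of 58.7% and 14 CpG over all promoters. These matches describe letters only, and binding was not measured.

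Libraries held 7897060 to 15662385 reads in listed genes. Levels are given as reads, as CPM (read counts scaled to a common library size) or, where genes are compared with each other, as RPKM (CPM per kilobase of the gene length behind the deposited values). The lengths were 2519 bases for EPCAM, 4350 for ST14, 3008 for PRSS8, 3587 for SPINT1 and 5199 for SPINT2. Tests are limma fits over all genes with Benjamini-Hochberg adjustment and a threshold of 0.05, and a log2 fold change is that of log2 CPM with a prior count of 2, which understates changes of genes with few reads. As checks of the labels, TWIST1 was higher in HMLE-TWIST1 than in HMLE by log2 fold changes of 6.68, 5.72, 5.47 and 6.04 in the 4 control comparisons, and SUV39H1 and SUV39H2 were lower after the knockdown in both lines at both days, by log2 fold changes from -1.40 to -0.90 for SUV39H1 and from -1.21 to -0.39 for SUV39H2. All 8 mesenchymal marker genes were higher and all 5 mammary basal and all 5 measured luminal ones lower in HMLE-TWIST1 in each of these 4 comparisons.

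All 5 members were expressed in each of the 18 HMLE libraries and were near the limit of detection in the 33 HMLE-TWIST1 libraries. EPCAM had 0 to 15 reads per HMLE-TWIST1 library, with a median of 2, and 203 to 1158 in HMLE. ST14 had 0 to 8 reads in HMLE-TWIST1 and 659 to 1286 in HMLE. PRSS8 was at 0 reads in 29 of the 33 HMLE-TWIST1 libraries and reached at most 4, against 435 to 1006 in HMLE. SPINT2 had 0 to 5 reads in HMLE-TWIST1 and 1040 to 1767 in HMLE. SPINT1 was the only member seen in every HMLE-TWIST1 library, with 2 to 55 reads, against 2108 to 6183 in HMLE. No range of one line touched that of the other.

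**Figure D1:**
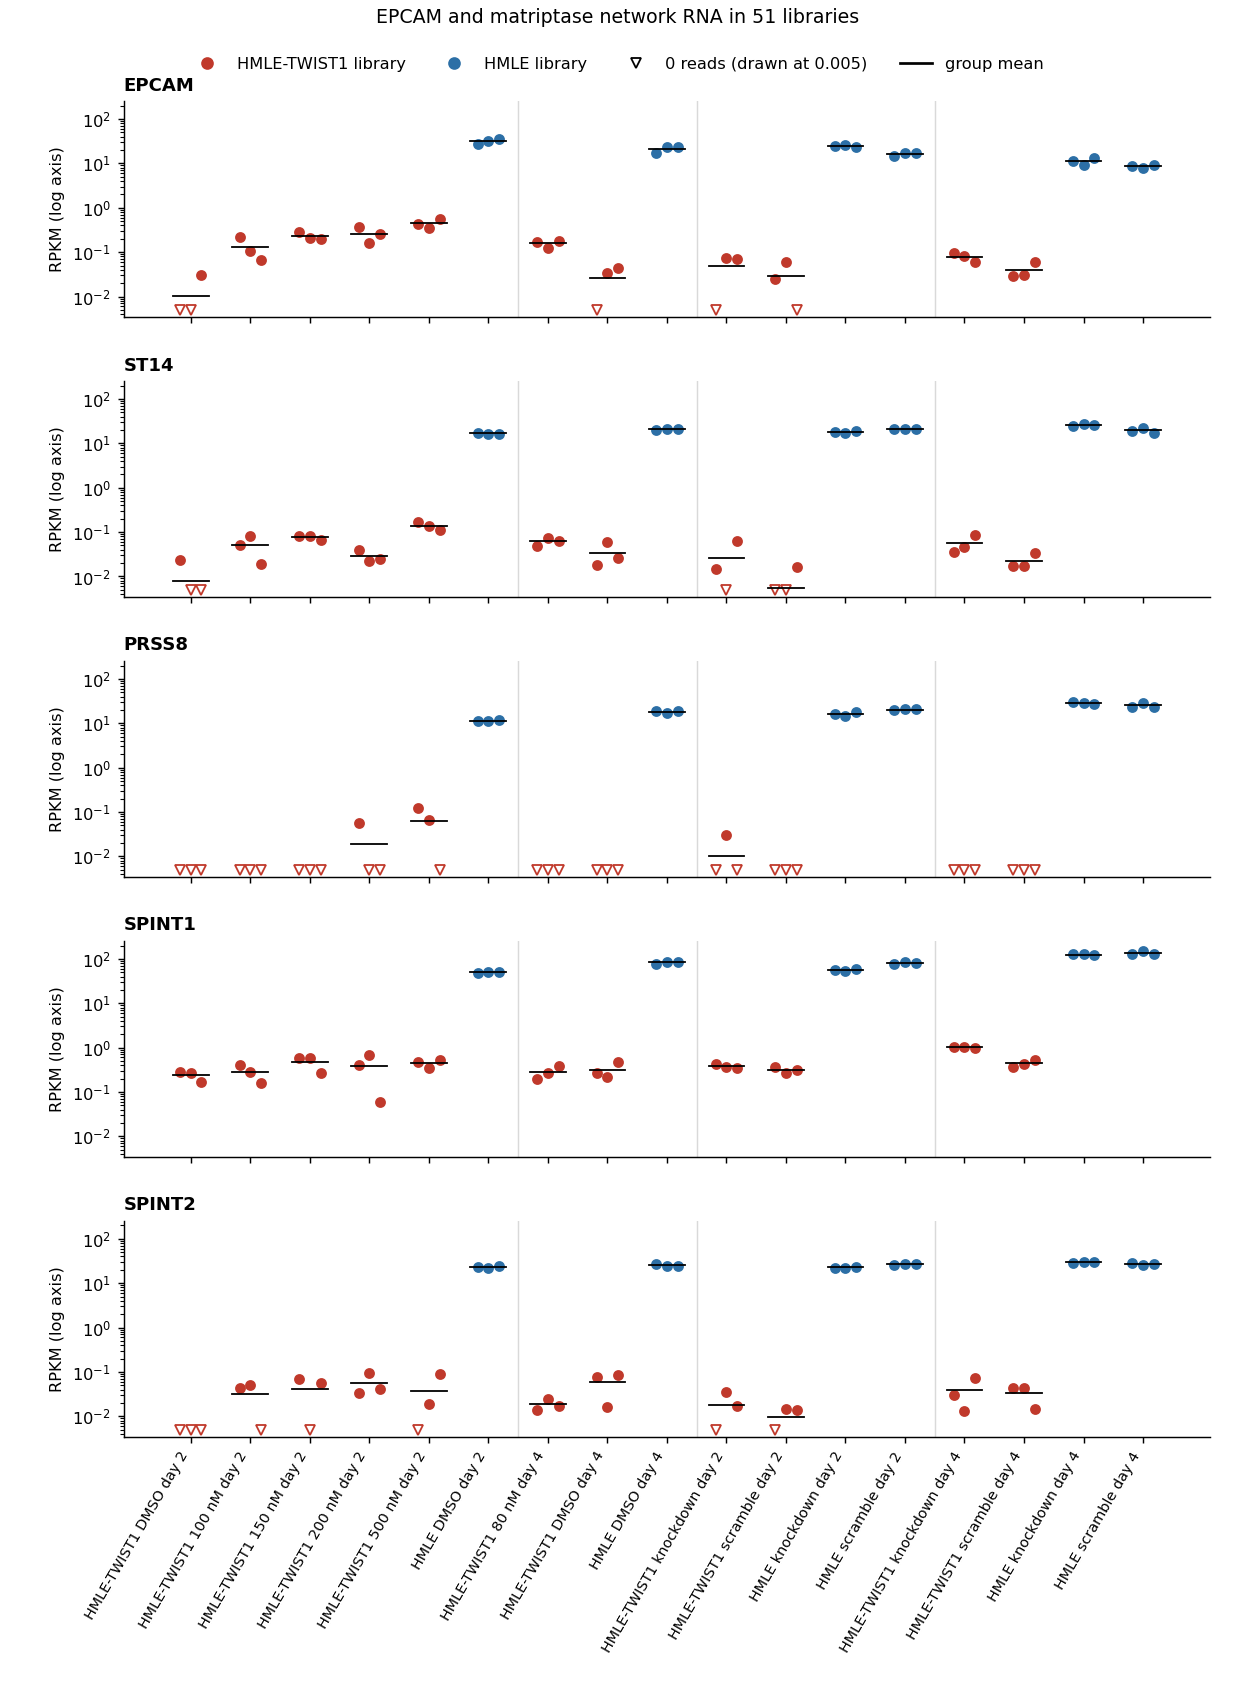
Each point is 1 library, the vertical axis is RPKM on a log axis, and triangles at the bottom are libraries with 0 reads; groups are on the horizontal axis and bars are group means. HMLE libraries lie between 7.94 and 150.6 RPKM for every member, and HMLE-TWIST1 libraries between 0 and 1.05 RPKM.

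In HMLE-TWIST1 cells all 5 members were lower than in HMLE cells in DMSO and with the scrambled duplex, at both days. In the day 2 DMSO groups, EPCAM had 0, 0 and 1 read in HMLE-TWIST1 and 27.4, 31.6 and 35.8 RPKM in HMLE, where its 3 libraries held 3215 reads. The counts of the other members were 1 read in HMLE-TWIST1 against 2950 in HMLE for ST14, 0 against 1382 for PRSS8, 31 against 7240 for SPINT1 and 0 against 4822 for SPINT2. The 5 members were called lower in this comparison, beside 23.2% of all genes. They were also called lower at day 4 in DMSO (33.4% of all genes called lower), with the scramble at day 2 (33.3%) and with the scramble at day 4 (36.8%). In total RNA of a culture, fewer cells that express a gene and less of its RNA in each cell cannot be told apart.

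The size of the difference was bounded by counting for the members near 0. SPINT1 was 210.3-fold lower in day 2 DMSO cells of HMLE-TWIST1 (95% exact binomial interval of the ratio of reads 148.0 to 309.8), and 276.3-fold lower (199.4 to 394.7) at day 4. With a floor of 3 reads over the 3 libraries, PRSS8 was at least 414.9-fold lower at day 2 and at least 604.5-fold lower at day 4 in DMSO. SPINT2 was at least 1447.5-fold lower at day 2 and, with 10 reads, 429.2-fold lower (233.1 to 895.8) at day 4. Such intervals cover counting error only, and reads of one library are not all independent molecules. The fitted log2 fold changes of the members had medians of -8.50, -8.18, -8.60 and -8.33 in the 4 comparisons, against 0.01, 0.01, 0.04 and 0.03 over all genes tested.

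Many genes around the network were lower in HMLE-TWIST1 too, by a number that varied between the 4 comparisons. Of the other membrane-anchored serine proteases tested, 4 of 9 were lower in DMSO at day 2 (median log2 fold change -1.03), 8 of 9 in DMSO at day 4 (-5.37), 8 of 9 with the scramble at day 2 (-5.74) and 9 of 10 with the scramble at day 4 (-7.84), and 1 was higher each time. The remaining values are those of the scramble groups of day 4. TMPRSS4, TMPRSS11A, TMPRSS11E and TMPRSS13, transmembrane proteases of the same class as matriptase, had 0 reads in HMLE-TWIST1 against 5500, 2562, 8056 and 2267 in HMLE. Among 15 other Kunitz-type and serine protease inhibitors, 4 were higher and 9 lower, and SPINK5, an inhibitor of skin proteases, had 0 reads against 77308. All 11 tested substrates and substrate receptors were lower, among them SCNN1A, a subunit of the sodium channel that prostasin activates, at -5.03 on the log2 scale (SE 0.09, adjusted p = 2.6e-18). MET, the receptor of the growth factor HGF whose precursor matriptase cleaves, was lower at -1.91 on the log2 scale (SE 0.05, adjusted p = 3.5e-16) at 68.3 CPM in HMLE-TWIST1 and 256.9 CPM in HMLE. Among 17 partners and processing enzymes of EPCAM, 2 were higher and 13 lower. All 13 tested epithelial transcription and splicing regulators were lower, among them GRHL2, a grainyhead factor, with 0 reads against 4151. Over all genes, 36.8% were lower and 37.6% higher here.

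Among HMLE groups the members did not share 1 order. EPCAM spanned the widest range, from 8.63 ± 0.607 RPKM in the scramble group of day 4 to 31.6 ± 4.20 RPKM in the DMSO group of day 2 (SD, n = 3), a ratio of 3.66. SPINT1 was the most abundant member per length in every HMLE group and ran the other way, with 134.0 ± 14.3 RPKM in the scramble group of day 4 and 49.7 ± 0.866 RPKM in the DMSO group of day 2, a ratio of 2.70. PRSS8 had its lowest level in the same DMSO group, 11.3 ± 0.416 RPKM, and its highest in the knockdown group of day 4, 28.9 ± 1.26 RPKM. ST14 ran from 16.7 ± 0.493 to 26.4 ± 1.25 RPKM and SPINT2 from 22.8 ± 0.833 to 29.5 ± 1.27 RPKM, ratios of 1.58 and 1.29. By the genes that have values, the DMSO and duplex libraries form separate parts of the deposited table. Levels set across parts carry any difference in their processing.

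By EPCAM level the HMLE groups stood in the order DMSO day 2, knockdown day 2, DMSO day 4, scramble day 2, knockdown day 4 and scramble day 4. The libraries of the knockdown group of day 2 overlapped those of DMSO day 4, and those of DMSO day 4 overlapped the scramble group of day 2, while the other neighbours did not overlap. By SPINT1 level the order was scramble day 4, knockdown day 4, DMSO day 4, scramble day 2, knockdown day 2 and DMSO day 2, where both scramble and knockdown of day 4 overlapped, and DMSO day 4 with scramble day 2. Across the 6 HMLE group means of log2 CPM, the Pearson r of EPCAM was -0.97 with SPINT1, -0.92 with PRSS8, -0.85 with SPINT2 and -0.62 with ST14. The other 4 members correlated with one another at 0.73 to 0.94. Over all 17 groups every pair of members had an r of 0.96 to 0.99. These points share libraries, and the 17 fall into 2 clusters by line, so the values are descriptions.

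In HMLE cells, SPINT1 was higher at day 4 than at day 2 under both control treatments. The scramble of day 4 had a further 48 h in fresh medium. Day 4 of DMSO was 15 h of DMSO with 48 h of recovery, and day 2 was 48 h of DMSO. Time and exposure therefore cannot be told apart in the DMSO comparisons of days. With the scrambled duplex, EPCAM fell to 8.89, 7.94 and 9.07 RPKM at day 4, against 15.0, 16.9 and 17.4 RPKM at day 2, which on the log2 scale is -0.92 (SE 0.25, adjusted p = 0.00348). With a prior count of 0.5 the EPCAM call was lost (adjusted p = 0.161, range over 16 alternatives 8.8e-09 to 0.161). SPINT1 rose to 125.9, 150.6 and 125.6 RPKM at day 4, against 77.5, 83.5 and 81.4 RPKM at day 2 (log2 fold change 0.72, SE 0.11, adjusted p = 2.5e-06), a call lost with all 51 libraries in 1 fit (adjusted p = 0.121, range over 16 alternatives 4.8e-13 to 0.121). Neither gene's libraries overlapped between days. These were 1 of 5 members lower and 1 higher, beside 20.6% and 21.7% of all genes.

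In DMSO cells of HMLE, SPINT1 rose to 78.6, 85.8 and 84.6 RPKM at day 4, against 48.7, 50.2 and 50.2 RPKM at day 2 (log2 fold change 0.76, SE 0.22, adjusted p = 0.0126). PRSS8 rose to 19.3, 16.8 and 19.0 RPKM, against 11.0, 11.2 and 11.8 RPKM (log2 fold change 0.71, SE 0.22, adjusted p = 0.015). Both passed the test, beside 20.5% of all genes higher, but the PRSS8 call was lost without any 1 of 4 libraries, replicates 1 and 2 of day 2 and replicates 1 and 3 of day 4 (adjusted p 0.0571 to 0.0711). With scaling by library totals alone, neither gene passed (adjusted p = 0.0561 for SPINT1 and 0.0729 for PRSS8, ranges over 16 alternatives 1.8e-08 to 0.120 and 3.1e-07 to 0.0974). EPCAM had 17.1, 23.8 and 22.9 RPKM at day 4, against 27.4, 31.6 and 35.8 RPKM at day 2, groups that did not overlap (log2 fold change -0.56, SE 0.24, adjusted p = 0.0836).

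In these tests the spread was estimated over libraries of both lines. With the 2 HMLE groups compared alone, EPCAM passed at day 4 of DMSO (log2 fold change -0.62, SE 0.13, adjusted p = 0.0027, range over all 16 alternatives 5.4e-04 to 0.361) and so did ST14 (log2 fold change 0.26, SE 0.07, adjusted p = 0.0127, range 0.00103 to 0.701), with 18.9% of genes lower and 18.7% higher in that fit. PRSS8 then also passed between the days of the scramble (log2 fold change 0.27, SE 0.08, adjusted p = 0.0107, range 4.1e-04 to 0.564), beside 22.1% of genes higher.

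Other membrane-anchored serine proteases were also higher at day 4 in HMLE. Of 10 tested with the scramble, 7 were higher and 0 lower, and of 9 tested in DMSO, 7 were higher and 0 lower (21.7% and 20.5% of all genes higher), with median log2 fold changes of 1.09 and 1.85 against 0.00 and 0.05 over all genes. TMPRSS11D, an airway-type transmembrane protease, had 72.7 CPM at day 4 and 9.53 CPM at day 2 with the scramble (log2 fold change 2.91, SE 0.25, adjusted p = 3.3e-10). SPINK5 had 2534.9 CPM at day 4 and 501.9 CPM at day 2 (log2 fold change 2.33, SE 0.15, adjusted p = 1.2e-12). ZEB2, a repressor of epithelial genes, was lower at -2.96 on the log2 scale (SE 0.08, adjusted p = 2.7e-21) at day 4 of the scramble and higher by 0.42 (SE 0.15, adjusted p = 0.0358) at day 4 of DMSO.

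After the SUV39H1/H2 knockdown in HMLE cells at day 2, SPINT1 fell and EPCAM lay on the other side of the scramble. SPINT1 had 56.1, 52.2 and 59.7 RPKM after the knockdown, against 77.5, 83.5 and 81.4 RPKM with the scramble, and it was the 1 of 5 members called lower, beside 14.7% of all genes (log2 fold change -0.50, SE 0.10, adjusted p = 0.00112). EPCAM had 25.0, 25.7 and 23.7 RPKM after the knockdown, against 15.0, 16.9 and 17.4 RPKM with the scramble, and missed the threshold with the shared spread (log2 fold change 0.63, SE 0.28, adjusted p = 0.107). ST14 had 18.3, 16.7 and 18.6 RPKM after the knockdown and 21.4, 21.5 and 21.3 RPKM with the scramble. PRSS8 had 16.3, 14.8 and 17.7 RPKM and SPINT2 22.5, 22.1 and 23.7 RPKM after the knockdown, against 19.6, 21.2 and 20.5 RPKM and 25.2, 27.4 and 27.5 RPKM with the scramble. Knockdown and scramble libraries overlapped for none of the 5 members, of which 1 passed the test. The share of all genes without such overlap was not counted, so the lack of overlap is not a result about the members. Beside this, 3 of 5 basal markers were lower and 0 higher, and these markers summed to 6634.9 to 7208.5 CPM after the knockdown and 11652.2 to 12133.4 CPM with the scramble. Their part in the member values was not tested.

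With the 2 HMLE groups of day 2 fitted alone, all 5 members passed, EPCAM higher and the other 4 lower, beside 15.2% of genes higher and 17.8% lower in that fit. EPCAM then stood at 0.63 on the log2 scale (SE 0.07, adjusted p = 4.1e-06, range over 16 alternatives 3.5e-06 to 0.566). ST14, PRSS8 and SPINT2 had log2 fold changes of -0.23 (adjusted p = 0.00672, range 0.00672 to 0.839), -0.30 (adjusted p = 0.00312, range 0.00143 to 0.596) and -0.19 (adjusted p = 0.00974, range 0.00974 to 0.851). With precision weights that follow the read count (voom), all 5 passed as well, beside 14.0% of genes higher and 16.6% lower, and with all 51 libraries in 1 fit none did (SPINT1 adjusted p = 0.346).

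**Figure D2:**
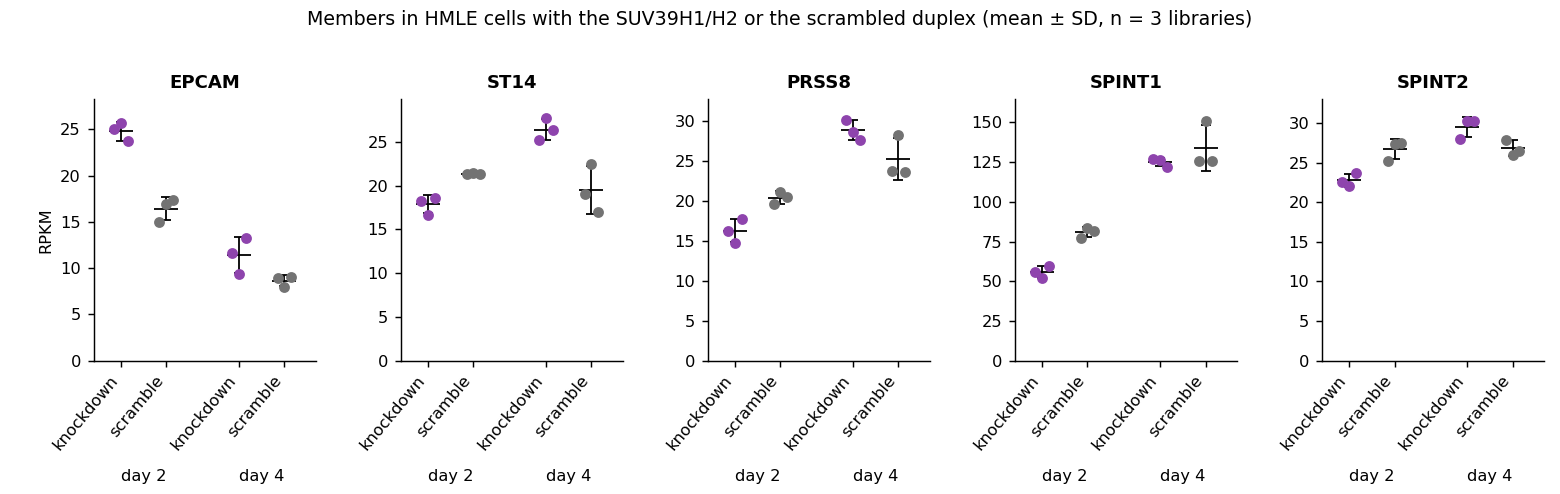
RPKM of the 5 members in HMLE libraries on a linear axis from 0, with knockdown left of scramble at each day; points are libraries and bars are mean ± SD (n = 3). At day 2 EPCAM lies higher after the knockdown (23.7 to 25.7 RPKM) than with the scramble (15.0 to 17.4 RPKM) and SPINT1 lower (52.2 to 59.7 against 77.5 to 83.5 RPKM), and at day 4 the SPINT1 libraries of both groups overlap.

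At day 4 of the HMLE duplex groups, 0 of the 5 members passed, beside 26.1% of all genes, and 1 of them, ST14, had an unadjusted limma p under 0.05. EPCAM had 11.6, 9.34 and 13.3 RPKM after the knockdown, against 8.89, 7.94 and 9.07 RPKM with the scramble (log2 fold change 0.37, SE 0.21, adjusted p = 0.211). ST14 had 25.2, 27.7 and 26.4 RPKM after the knockdown, against 19.5 ± 2.78 RPKM with the scramble (SD, n = 3; log2 fold change 0.43, SE 0.19, adjusted p = 0.107). Neither gene's groups overlapped, and both passed with only these 2 groups in the fit, EPCAM at an adjusted p of 0.0261 (range over 16 alternatives 0.0123 to 0.507) and ST14 at 0.00221 (range 2.4e-04 to 0.328), where 11.4% of genes were higher. SPINT1 had 126.7, 126.3 and 121.9 RPKM after the knockdown and 125.9, 150.6 and 125.6 RPKM with the scramble, which overlapped. PRSS8 overlapped between the groups too, and SPINT2 had 28.0, 30.2 and 30.2 RPKM after the knockdown against 27.9, 26.0 and 26.5 RPKM.

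Whether the knockdown effect in HMLE differed between the days was tested as its own term. None of the 5 members passed with the shared spread (17.6% of all genes did), and SPINT1 alone had an unadjusted limma p under 0.05 (log2 difference 0.38, SE 0.15, adjusted p = 0.0809). With only these groups in the fit, ST14 (0.66, adjusted p = 3.3e-04, range over 22 alternatives 2.0e-05 to 0.611), PRSS8 (0.49, adjusted p = 0.00482, range 4.5e-04 to 0.515), SPINT1 (0.39, adjusted p = 0.00695, range 4.2e-04 to 0.696) and SPINT2 (0.32, adjusted p = 0.0122, range 0.00862 to 0.849) had a more positive effect at day 4 than at day 2, beside 8.99% of genes. EPCAM did not pass in any of the 22 alternatives.

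Genes around the network were called in both directions after the HMLE knockdown. At day 2, where 14.1% of all genes were higher and 14.7% lower, 2 of 15 other protease inhibitors were higher and 8 lower, among them SPINK5 (log2 fold change -2.15, SE 0.16, adjusted p = 2.9e-08) and SERPINB5, or maspin (-0.71, SE 0.07, adjusted p = 4.8e-07). Of 9 other membrane-anchored proteases, 0 were higher and 2 lower, TMPRSS11D and PRSS27. Of 13 epithelial regulators, 5 were lower and 0 higher, among them KLF5 (-0.65, SE 0.06, adjusted p = 1.1e-06) and GRHL1 (-0.58, SE 0.06, adjusted p = 2.0e-06). At day 4, where 11.7% of all genes were higher and 14.4% lower, 4 of 10 membrane-anchored proteases were lower and 0 higher, and PLAU, the urokinase whose precursor matriptase activates, was higher by 0.45 (SE 0.07, adjusted p = 1.2e-04).

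In HMLE-TWIST1 cells SPINT1 was higher after the knockdown than with the scramble at day 4. SPINT1 had 46, 55 and 47 reads after the knockdown, against 18, 20 and 26 reads with the scramble, which is 1.02 ± 0.0362 RPKM and 0.444 ± 0.0866 RPKM (SD, n = 3 each). The groups did not overlap, and the log2 fold change was 1.11 (SE 0.10, adjusted p = 1.9e-07). The ratio of the summed reads was 2.29 (95% exact binomial interval 1.69 to 3.12), and the call held in all 17 alternatives, with adjusted p from 1.8e-08 to 0.0151. This highest HMLE-TWIST1 level lay far under the 125.0 ± 2.66 RPKM of HMLE cells with the same duplex and day. Luminal and basal markers moved at the same day, with 4 of 5 luminal markers and 2 of 5 basal ones higher and 0 lower, beside 19.0% of all genes higher. Of 13 epithelial regulators, 2 were higher (GRHL1 and TP63, log2 fold changes 0.43 and 0.93) and 2 lower (ESRP1 and KLF5, -1.96 and -0.35). The luminal markers summed to 107.3 to 114.6 CPM after the knockdown and 70.5 to 76.7 CPM with the scramble, with KRT19 at 0 reads in both, and the basal ones to 5.18 to 6.33 CPM and 0.958 to 1.34 CPM, with KRT17 at 0 reads with the scramble. Their part in the SPINT1 result was not tested.

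ST14 was the other member called at that day with HMLE libraries in the fit, and not without them, with 2, 3 and 5 reads after the knockdown, against 1, 1 and 2 with the scramble (log2 fold change 0.60, SE 0.19, adjusted p = 0.018). These 2 of 5 members stand beside 19.0% of all genes higher. With only the knockdown and scramble groups and no filter on low counts, ST14 did not pass (adjusted p = 0.197, range over 16 alternatives 0.00484 to 0.286). The ST14 call was lost without replicate 1 or 2 of the scramble or replicate 3 of the knockdown (adjusted p 0.0501, 0.0507 and 0.0857), and the interval of the ratio of its reads, 0.713 to 10.8, includes no change. EPCAM had 3, 3 and 2 reads after the knockdown and 1, 1 and 2 with the scramble (log2 fold change 0.45, SE 0.21, adjusted p = 0.0979), PRSS8 had 0 reads in all 6 libraries, and SPINT2 had 8 reads in all after the knockdown against 7.

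At day 2 of the knockdown in HMLE-TWIST1, 0 of 5 members passed, beside 15.8% of all genes, and 1 had an unadjusted limma p under 0.05, SPINT1. It had 24, 14 and 14 reads after the knockdown and 20, 13 and 16 with the scramble, which overlapped (log2 fold change 0.23, SE 0.10, adjusted p = 0.148). The other 4 members had 4 reads or fewer each in all after the knockdown, with adjusted p from 0.296 to 0.628. Without replicate 2 of the knockdown, which had 0 ST14 reads, ST14 passed in limma with HMLE libraries in the fit (log2 fold change 0.80, adjusted p = 0.0343). That call rests on 1 and 3 reads after the knockdown, against 0, 0 and 1 with the scramble.

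The SPINT1 effect of the knockdown was called different between the lines and, in HMLE-TWIST1, between the days. These fits take their spread from libraries of both lines. In HMLE-TWIST1 at day 2, SPINT1 had 52 reads after the knockdown and 49 with the scramble, against 7705 and 10135 in HMLE. HMLE-TWIST1 minus HMLE, the difference of its log2 fold changes was 0.73 at day 2 (SE 0.14, adjusted p = 0.00261) and 1.22 at day 4 (SE 0.15, adjusted p = 1.6e-05), the 1 member called higher of 5 each time, beside 6.36% and 12.2% of all genes. In HMLE-TWIST1 the effect at day 4 exceeded that at day 2 by 0.90 (SE 0.15, adjusted p = 4.7e-05), beside 10.9% of genes higher. With voom weights the difference between lines at day 2 and that between days did not pass (adjusted p = 0.11 and 0.139), and with all 51 libraries in 1 fit none of the 3 did (0.491, 0.111 and 0.318). The range of adjusted p was 0.00101 to 0.491 and 1.7e-06 to 0.111 for the lines at days 2 and 4 (22 alternatives each), and 2.1e-06 to 0.318 for the days (23 alternatives).

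**Figure D3:**
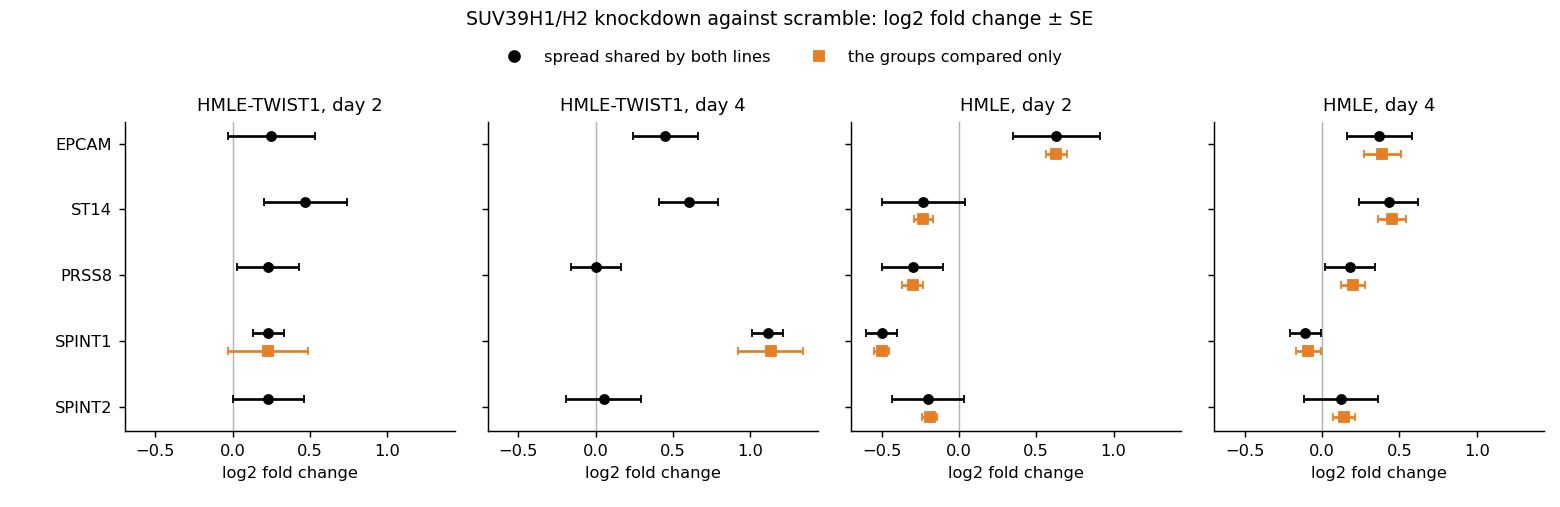
Log2 fold change of knockdown against scramble (horizontal axis, bars are ± SE) for each member in each line and day. Circles are the fit whose spread is shared by both lines and squares the fit of the 2 groups compared, drawn where the member passed that fit's filter on low counts. SPINT1 lies at 1.11 in HMLE-TWIST1 at day 4 and at -0.50 in HMLE at day 2, and EPCAM in HMLE at day 2 has the same value of 0.63 in both fits with SE of 0.28 and 0.07.

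Of 11 substrates of the proteases and their receptors tested in HMLE-TWIST1 at day 4 of the knockdown, 5 were higher and 0 lower, beside 19.0% of all genes higher and 19.0% lower. SCNN1A had 17.5 CPM after the knockdown and 7.33 CPM with the scramble (log2 fold change 1.23, SE 0.09, adjusted p = 1.1e-08). MST1R, the receptor of a growth factor related to HGF, had 51 reads against 10 (log2 fold change 1.75, SE 0.25, adjusted p = 2.5e-05), and CDCP1, a surface protein that matriptase can cut, was higher by 0.82 (SE 0.09, adjusted p = 7.2e-07). None of 10 other membrane-anchored proteases passed in limma, and of 13 epithelial regulators 2 were higher and 2 lower. TMPRSS4, TMPRSS11A, TMPRSS11E and TMPRSS13 had 0 reads with the scramble, so a fall could not be seen for them. TMPRSS13 had 2 reads after the knockdown, and TMPRSS3 had 3 against 0, so the lack of protease calls says little. TMPRSS15 came nearest among these proteases, lower at 3.19 CPM after the knockdown and 5.60 CPM with the scramble (adjusted p = 0.112).

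Between the days of the scramble in HMLE-TWIST1, SPINT1 was higher at day 4, the 1 of 5 members called, beside 13.6% of all genes (log2 fold change 0.43, SE 0.11, adjusted p = 0.00267). It had 18, 20 and 26 reads at day 4 and 20, 13 and 16 at day 2, which did not overlap once scaled, and the call was lost with only these groups in the fit (adjusted p = 0.205, range over 17 alternatives 3.6e-04 to 0.468). Between the DMSO groups, which also differed in exposure and recovery, SPINT2 had 5, 1 and 4 reads at day 4 and 0, 0 and 0 at day 2 (log2 fold change 1.41, SE 0.25, adjusted p = 0.0126). It was the 1 member called with HMLE libraries in the fit (0.256% of genes higher). With only these 2 groups and no filter on low counts it did not pass (adjusted p = 0.144, range over 16 alternatives 7.9e-05 to 0.144), and the call was also lost without replicate 3 of day 2, or without replicate 1 or 3 of day 4 (adjusted p 0.0538, 0.0736 and 0.0783).

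EPCAM was called higher in HMLE-TWIST1 cells at each of the 4 chaetocin doses than in DMSO, from few reads. Summed over 3 libraries there was 1 EPCAM read in DMSO, and the doses held 10 (100 nM), 19 (150 nM), 21 (200 nM) and 36 (500 nM). The DMSO libraries held 0, 0 and 1 read, those of 100 nM held 5, 3 and 2, those of 150 nM 8, 6 and 5, those of 200 nM 11, 4 and 6, and those of 500 nM 12, 9 and 15, and no treated library overlapped DMSO. The log2 fold changes were 1.27 (SE 0.32, adjusted p = 0.00886), 1.91 (adjusted p = 2.9e-04), 2.01 (adjusted p = 1.3e-04) and 2.68 (adjusted p = 4.9e-06) from the lowest to the highest dose. EPCAM, ST14, PRSS8 and SPINT2 passed the filter on low counts through the HMLE libraries of this fit, which are in none of these comparisons. With only a dose and DMSO in the fit and no such filter, EPCAM passed at 150, 200 and 500 nM (adjusted p = 0.00298, 0.00301 and 1.5e-04) and not at 100 nM (adjusted p = 0.0627, range over 15 alternatives 2.3e-04 to 0.0627). The ratio of reads at 500 nM to DMSO was 41.7, with a counting interval of 7.01 to 1690.4. The treated level stayed low in absolute terms, since EPCAM at 500 nM was 69.5-fold lower (counting interval 50.1 to 99.4) than in HMLE cells in DMSO, or 1.44% of that level.

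ST14 was called higher at 3 of the 4 doses. Its reads were 1, 0 and 0 in DMSO, then 2, 4 and 1 with 100 nM, 4, 4 and 3 with 150 nM, 2, 1 and 1 with 200 nM, and 8, 6 and 5 with 500 nM. The log2 fold changes were 0.89 (adjusted p = 0.0362), 1.31 (adjusted p = 0.00261), 0.55 (adjusted p = 0.152) and 1.89 (adjusted p = 6.2e-05), so that 200 nM alone did not pass, though it did with a prior count of 0.5 (adjusted p = 0.0384, range over 15 alternatives 0.0384 to 0.337). With only a dose and DMSO in the fit and no filter on low counts, ST14 passed at 150 and 500 nM (adjusted p = 0.02 and 0.00163) and not at 100 nM (0.169). The call at 100 nM was lost without any 1 of 4 libraries (DMSO replicates 2 and 3 and 100 nM replicates 1 and 2, adjusted p 0.0961 to 0.160), and that of EPCAM at 100 nM without replicate 1 of that dose (0.0532).

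The inhibitors and prostasin gave few calls. SPINT2 had 0 reads in DMSO, and 5 (100 nM), 7 (150 nM), 9 (200 nM) and 6 (500 nM) with chaetocin, and passed at 200 nM (log2 fold change 1.35, SE 0.50, adjusted p = 0.0387), also with only that dose and DMSO in the fit and no filter (adjusted p = 0.0201, range over 15 alternatives 0.00240 to 0.155). That call was lost without each of the 3 DMSO libraries, and without replicate 2 or 3 of 200 nM (adjusted p 0.051 to 0.155). PRSS8 had 0 reads in every library of DMSO, 100 nM and 150 nM. It had 2, 0 and 0 with 200 nM and 4, 2 and 0 with 500 nM (log2 fold change 0.89, adjusted p = 0.0553). Without replicate 3 of 500 nM, which had 0 reads, its adjusted p was 0.00491. With only 500 nM and DMSO in the fit and no filter on low counts, PRSS8 did not pass (adjusted p = 0.122). SPINT1 passed at no dose. Its reads were 10, 13 and 8 in DMSO, then 13, 11 and 7 with 100 nM, 23, 24 and 10 with 150 nM, 17, 25 and 2 with 200 nM, and 19, 13 and 20 with 500 nM, where the log2 fold change was 0.79 (SE 0.50, adjusted p = 0.206) and 0.043 with only those 2 groups in the fit (range over 16 alternatives 0.0430 to 0.417). The library with 2 SPINT1 reads is replicate 3 of 200 nM, and without it SPINT1 passed at that dose (adjusted p = 0.0336).

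With HMLE libraries in the fit, the member calls were 2 of 5 higher at each of the 4 doses, beside 11.9%, 17.8%, 20.9% and 26.0% of all genes. With only a dose and DMSO in the fit and no filter on low counts, neither call at 100 nM held, while those at the other doses did. DMSO and dose libraries lie in separate parts of the deposited table, recognised by which genes have values. Any difference between those parts and the drug effect cannot be told apart in these 4 comparisons, which also share their DMSO libraries.

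**Figure D4:**
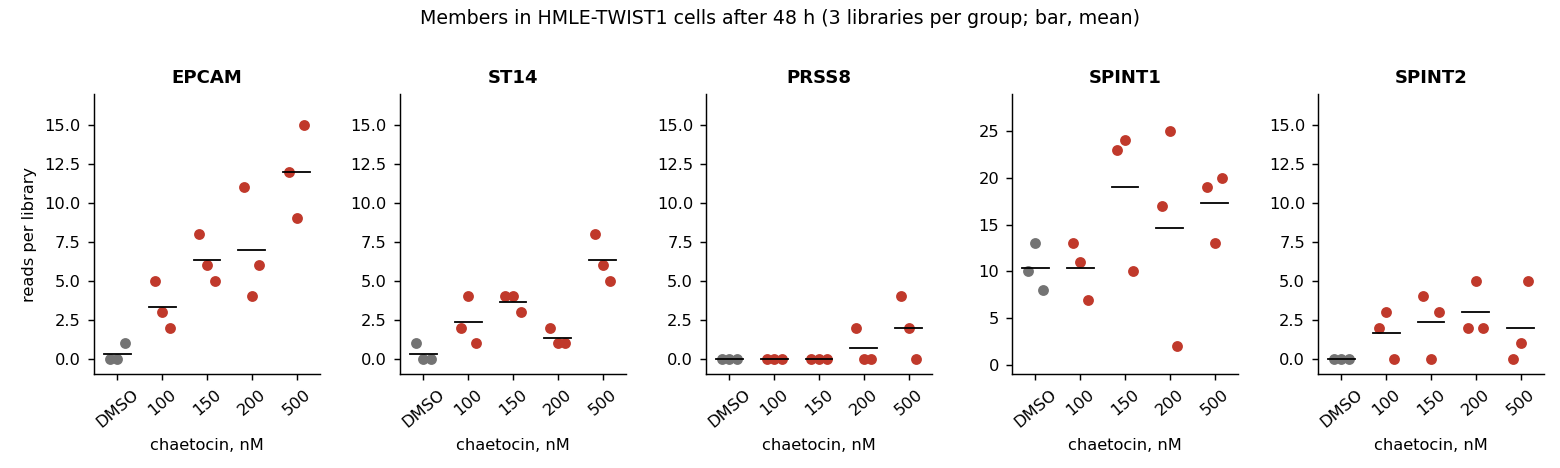
Reads per library (vertical axis) of each member in HMLE-TWIST1 cells after 48 h, with DMSO at the low end and doses in nM; points are libraries and bars are means. EPCAM runs to 9 to 15 reads at 500 nM. ST14 is at 1 to 2 reads at 200 nM and 5 to 8 at 500 nM. PRSS8 is at 0 in all libraries up to 150 nM. DMSO and the doses lie in separate parts of the deposited table.

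Between 500 and 100 nM, inside 1 part of the table, EPCAM and ST14 were both called higher at the larger dose. These were 2 of 5 members beside 9.05% of all genes, with HMLE libraries in the fit. With only these 2 doses and no filter on low counts neither passed (adjusted p = 0.0807 for EPCAM and 0.188 for ST14, ranges over 16 and 15 alternatives 1.2e-04 to 0.0807 and 0.00229 to 0.188). EPCAM had 36 reads at 500 nM and 10 at 100 nM (log2 fold change 1.41, SE 0.32, adjusted p = 0.00884), and the ratio of reads was 3.66 (counting interval 1.78 to 8.28). ST14 had 19 reads at 500 nM and 7 at 100 nM (log2 fold change 1.00, adjusted p = 0.0286), a ratio of 2.76 (1.11 to 7.77). Without replicate 3 of 100 nM neither passed (adjusted p = 0.0515 for EPCAM and 0.153 for ST14), and ST14 was also lost without replicate 1 or 2 of 500 nM (0.0761 and 0.0882). SPINT1, SPINT2 and PRSS8 did not pass, with 52, 6 and 6 reads at 500 nM against 31, 5 and 0 at 100 nM.

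After the washout of 80 nM at day 4, EPCAM had 6, 5 and 5 reads, against 0, 1 and 1 in DMSO of the same schedule. The groups did not overlap, and EPCAM was the 1 of 5 members called higher, beside 19.4% of all genes (log2 fold change 1.28, adjusted p = 0.00172). The ratio of reads was 6.48 (counting interval 1.52 to 58.1), and the call held in all 16 alternatives (adjusted p 3.2e-04 to 0.0403), among them the washout and DMSO groups fitted alone with no filter on low counts (0.0103). ST14 had 3, 5 and 3 reads after the washout and 1, 3 and 1 in DMSO (log2 fold change 0.49, adjusted p = 0.137). SPINT2 had 1, 2 and 1 reads after the washout and 5, 1 and 4 in DMSO (log2 fold change -0.74, adjusted p = 0.0647). Without replicate 2 of DMSO both passed, ST14 higher (adjusted p = 0.0329) and SPINT2 lower (adjusted p = 0.00145). With all libraries of only the washout and DMSO groups and no filter on low counts, neither passed (adjusted p = 0.31 for ST14 and 0.159 for SPINT2). SPINT1 had 10, 15 and 15 reads against 12, 9 and 15, and PRSS8 had 0 reads in all 6 libraries.

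Genes around the network were also called under chaetocin. At 500 nM against DMSO, where 26.0% of all genes were higher and 24.7% lower, 9 of 13 epithelial regulators were higher and 0 lower, among them EHF, an ETS factor of epithelia, with 443 reads against 8, and ESRP1, a splicing factor of epithelial cells, with 84 reads against 1. Of 9 other membrane-anchored proteases, 3 were higher and 0 lower, TMPRSS11D, CORIN and TMPRSS11E. Of 12 substrates and receptors, 6 were higher and 1 lower, led by MMP3, a matrix protease whose precursor matriptase can activate, with 403 reads against 0. Of 17 EPCAM partners and processing enzymes, 4 were higher and 7 lower, and ADAM10, a protease that sheds surface proteins, was lower at -1.31 on the log2 scale (SE 0.12, adjusted p = 4.2e-07). ESRP1 was also among the 7 of 13 regulators higher after the washout, with 129 reads against 1, beside 0 lower and 19.4% of all genes higher.

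Markers of other cell types moved with these comparisons as well. Of 7 leukocyte markers 3 are in the table, and 2 of these 3 were higher at 500 nM, where their summed level was 6.12 to 18.9 CPM per library, against 1.91 to 2.42 CPM in DMSO. Of 6 endothelial markers 5 are in the table, 2 of the 3 tested were higher, and their summed level was 10.9 to 17.2 CPM at 500 nM against 1.47 to 3.71 CPM in DMSO, where CDH5 had 0 reads. The 8 mesenchymal markers summed to 7225.1 to 9364.8 CPM at 500 nM and 28144.8 to 32968.9 CPM in DMSO, with 4 called lower and 0 higher. Of the 5 mammary basal markers tested, 2 were higher and 2 lower, and of 5 luminal ones 2 were higher and 1 lower. Over all genes, 26.0% were higher and 24.7% lower at 500 nM. The part of these genes' cell types in the member results was not tested.

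Ratios within a library do not depend on its scaling, and in HMLE they differed between treatments and days. The ratio of ST14 to SPINT1 by RPKM was 0.319 ± 0.00729 after the knockdown and 0.265 ± 0.00934 with the scramble at day 2, and 0.212 ± 0.0113 and 0.145 ± 0.00849 at day 4 (SD, n = 3 each). The 2 proteases together over the 2 inhibitors gave 0.433 ± 0.00841 after the knockdown and 0.389 ± 0.00816 with the scramble at day 2, and 0.358 ± 0.00225 and 0.278 ± 0.00977 at day 4. In no case did knockdown and scramble libraries overlap. EPCAM over SPINT1 was 0.446 ± 0.0478 after the knockdown and 0.203 ± 0.0101 with the scramble at day 2, and 0.0914 ± 0.0175 and 0.0652 ± 0.0108 at day 4. In DMSO that ratio was 0.255 ± 0.0327 at day 4 and 0.634 ± 0.0760 at day 2. The ratios are given as descriptions, with no test; with 3 libraries a group an exact permutation p cannot go below 0.10.

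**Figure D5:**
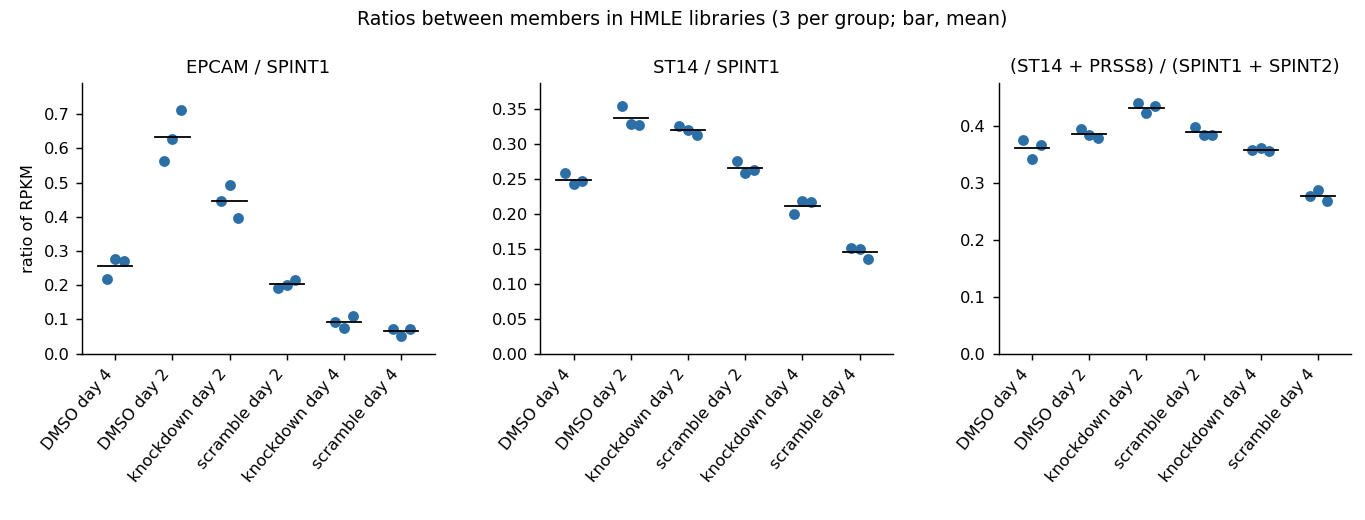
Ratios of RPKM between members in each HMLE library, on axes from 0; points are libraries and bars are means, with day 4 of DMSO left of day 2 and knockdown left of scramble. ST14 over SPINT1 is 0.319 after the knockdown and 0.265 with the scramble at day 2, and 0.212 and 0.145 at day 4.

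Likeness of group means of log2 CPM over the 17 groups was taken among 7280 genes. These have reads in all 3 parts of the table and a range of at least 2 log2 units. The genes nearest to EPCAM were RP11-85M11.2, FAM83A and KIAA1244 (Pearson r 0.993, 0.993 and 0.992). Nearest to ST14 were ZNF385A, MIR205HG, which hosts an epithelial microRNA, and FXYD3, and nearest to SPINT2 were S100A14, ARL11 and MIR205HG. PRSS8 was most like CBLC, KANK4 and RAB25, an epithelial Rab protein, and SPINT1 most like TTC22, MARK2 and ITGA6, the integrin of hemidesmosomes. All these r lay between 0.992 and 0.999, over 17 points that fall into 2 clusters by line.

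In GENCODE v29 annotation (GRCh38), exons of SPINT1 overlap those of SPINT1-AS1 on the opposite strand, exons of PRSS8 those of AC009088.3 on the opposite strand, and exons of SPINT2 those of AC011479.1 on the same strand. The library kit is stranded, but the strand setting of the counting is not given in the sources used here, so reads of these overlaps cannot be assigned. EPCAM overlaps small RNA genes outside its exons, and ST14 overlaps none.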

How the data were processed

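Expression was measured by stranded total RNA sequencing with ribosomal RNA depletion, per the labels' protocols. STAR, HTSeq and the hg19/GRCh37 genome are named, without versions, per the submitters' processing notes. The authors deposited log2 RPKM values for 51 named libraries in a single table. The genes that have values divide the libraries into 3 parts with 21700, 19777 and 23098 genes. These parts were inferred from the values, and no label names them as batches. Each library holds whole reads plus its own offset before the logarithm, with means over the parts of 2.029, 2.0 and 2.098 reads. These offsets ran from 1.2629 to 2.6491 reads over the libraries. Reads were recovered within 0.01 of a whole number for 100.0% of values. A deposited matrix of 81 unnamed columns was not used, because its columns carry no names.

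Reads were scaled with a trimmed mean of log ratios (trimming 30% by log ratio and 5% by level). Log2 CPM with a prior count of 2 was fitted with limma 3.58.1 in R 4.3.3 (trend, robust, statmod 1.5.0). A gene was kept with about 10 reads or more in 3 libraries and a total of 15, and all 5 members passed. In HMLE-TWIST1, EPCAM, ST14, PRSS8 and SPINT2 did so through the HMLE libraries of the same fit. SPINT1 also passed on HMLE-TWIST1 libraries alone at 100, 150 and 500 nM and after the washout. Group means came from models of the 18 day 2 DMSO and dose libraries, the 9 day 4 DMSO and washout libraries, the 15 DMSO and washout libraries, and 12, 12 and 24 duplex libraries. There were 22 comparisons of 3 libraries a group, adjusted over all genes of each. The fit was tested on simulated data in which genes with few reads were left unchanged. That simulation does not cover members near the limit of detection. Depths of 7897060 to 15662385 reads leave counts near 0 imprecise, and intervals used scipy 1.17.1; figures used matplotlib 3.10.9.

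Replicate pairs of a group differed by more than sampling noise. Same-numbered libraries of 500 and 100 nM deviated together (correlations 0.44, 0.20 and 0.20, all over 0.1), a pairing read from the data, and replicate numbers of other groups did not pair. Alternatives were other scalings, filters and prior counts, voom weights, the deposited values, other sets of libraries, a replicate block, leaving out each library and, chosen after seeing the data, only the groups compared with no filter on low counts.

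The members and the gene lists were chosen with earlier results of these data known. Named genes are the members, TWIST1, SUV39H1, SUV39H2, CDH1 and VIM, the 4 genes per list that ranked first by p in a comparison, and the 3 genes most like each member.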

Additional observations from a re-analysis of the deposited data

Results flagged for a closer look

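The change of SPINT1 after the SUV39H1/H2 knockdown was called different between the lines in a test of the difference itself, with a spread shared by both lines. HMLE-TWIST1 minus HMLE, it was 0.73 on the log2 scale at day 2 (SE 0.14, limma adjusted p = 0.00261) and 1.22 at day 4 (SE 0.15, adjusted p = 1.6e-05). At day 2 the log2 fold change was 0.23 in HMLE-TWIST1 and -0.50 in HMLE, and at day 4 it was 1.11 and -0.11. In HMLE-TWIST1 the change was also called different between days, by 0.90 for day 4 minus day 2 (SE 0.15, adjusted p = 4.7e-05). Voom weights lost the line difference at day 2 and the difference between days. With all 51 libraries in 1 fit, none of these differences passed. The HMLE-TWIST1 values rest on 148 reads after the knockdown and 64 with the scramble at day 4, and on 52 and 49 reads at day 2.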

How the results depend on the processing

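Of 1861 values of the members under other settings, 1758 kept their direction and their side of the threshold, 53 lost the call, 50 gained one and 0 reversed. Median-of-ratios scaling and no filter changed 0 of 110 calls each. All 5 members stayed lower in HMLE-TWIST1 than in HMLE in every alternative run.

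The count of members called moved with the libraries in the fit and with voom weights, which keep the same libraries. With only the groups compared, 5 passed for the HMLE knockdown at day 2 (1 as reported), 2 at day 4 (0 as reported), 4 between DMSO days of HMLE (2), 4 for the day difference of the HMLE knockdown (0) and 0 between scramble days of HMLE-TWIST1 (1). Voom weights gave 5, 2, 4, 4 and 0 there, 1 for 500 against 100 nM (2) and for the HMLE-TWIST1 knockdown at day 4 (2), and 0 for the line difference at day 2, the HMLE-TWIST1 days in DMSO and the day difference of its knockdown (1 each). All 51 libraries in 1 fit gave 4 at 500 nM (2), 0 for the HMLE knockdown at day 2, 1 for that of HMLE-TWIST1 at day 4, 0 for both line differences, 1 for HMLE days with scramble and with DMSO, and 0 for the HMLE-TWIST1 days with scramble and with DMSO and for the day difference of its knockdown. With only the groups compared and no filter on low counts, an alternative chosen after seeing the data, 0 passed at 100 nM (2), for 500 against 100 nM (2) and for the HMLE-TWIST1 days with scramble and with DMSO (1 each), 1 passed for its knockdown at day 4 (2), and the counts at 150, 200 and 500 nM and after the washout did not move. A prior count of 0.5 gave 1 for 500 against 100 nM, HMLE scramble days and HMLE DMSO days. Among the calls it gained were ST14 at 200 nM and PRSS8 at 500 nM against DMSO. Library totals gave 2 for HMLE-TWIST1 scramble days and 1 for HMLE DMSO days, a filter at 20 reads gave 2 for the same scramble days, and the deposited values gave 0 for HMLE-TWIST1 DMSO days. The cause was not tested.

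Leaving out 1 library at a time, the counts ran from 5 to 5 between lines, 0 to 2 at 100 nM, 2 to 3 at 150 nM, 1 to 2 at 200 nM, 2 to 3 at 500 nM, 0 to 3 for 500 against 100 nM and 1 to 3 after the washout. For the knockdown they ran from 1 to 1 and 0 to 0 in HMLE at days 2 and 4, 0 to 1 and 1 to 3 in HMLE-TWIST1, 1 to 2 and 1 to 1 for the line difference, and 0 to 1 and 1 to 1 for the day difference in HMLE and HMLE-TWIST1. Between days they ran from 2 to 2 and 1 to 2 with the scramble and 1 to 2 and 0 to 1 with DMSO in HMLE and HMLE-TWIST1.

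Counts over all genes moved by over 1.5 times in some comparisons. For 500 against 100 nM 3186 became 1486 with the deposited values, 591 with only those groups, 1016 with those groups unfiltered, 5124 with all 51 libraries and 955 to 3523 without 1 library. For HMLE-TWIST1 DMSO days 113 became 32, 62, 63, 66 and 8 to 214 in the same settings, and 239 with the replicate block. All 51 libraries in 1 fit gave 3332 for 5141 (HMLE knockdown, day 2), 1245 for 2825 (HMLE-TWIST1 knockdown, day 2), 742 for 2179 and 2412 for 4111 (line differences), 3560 for 5446 (HMLE-TWIST1 scramble days) and 1332 for 3293 and 2073 for 3753 (day differences in HMLE and HMLE-TWIST1).

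The replicate block changed 1 of 110 member calls, that of PRSS8 at 500 nM against DMSO (adjusted p = 0.0487, 0.0553 without it), whose libraries share only a number, and no call for the paired 500 and 100 nM groups. With only the groups compared, the members called by the main test at the doses, after the washout, in HMLE-TWIST1 DMSO days and ST14 in its knockdown at day 4 had too few reads to be tested unless the filter was dropped. Of 85 group levels, 1 moved by over 1 SD with median-of-ratios scaling and 23 with library totals.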
